A study of Mus musculus with 8 samples.

Results

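The comparison set adipose-derived mesenchymal stromal cells of mice kept on control chow for 24 weeks (C24) against those of mice kept on the same chow for 12 weeks (C12). Its members were the 4 arrays labelled with control diet, 2 for each feeding time, of 8 in the series. All mice were male C57BL/6 and 6 weeks old when feeding began, and no transgene or other allele was named. The labels call the 24-week groups old and the 12-week groups young. The other 4 arrays came from mice given a diet with 60% fat for 24 weeks (HF24) or 12 weeks (HF12), 2 for each feeding time. Abdominal subcutaneous fat was digested with collagenase, and the cells that stuck to plastic were grown in serum-containing medium and passaged before RNA was taken. Whether the 2 arrays of a group came from separate animals or cultures is not stated in the labels. The p-values therefore cover only the spread from array to array, which may be technical.

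Stromal cells of subcutaneous fat hold the progenitors that turn into adipocytes when the nuclear receptor PPARγ and the C/EBP factors are switched on, and mature adipocytes are filled with lipid and usually float off during digestion. Plastic-adherent cultures can also carry macrophages, endothelial and mural cells, muscle progenitors and skin cells of the dissected tissue. Fibroblast-like cells keep the Hox code of the body region they come from through passages in culture.

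A level here is the log2 intensity of a gene's probe minus the 75th percentile of its array, so that 0 is the brightness of that percentile. A change is the mean level on the 2 C24 arrays minus that on the 2 C12 arrays, given with its standard error from limma. A gene was called higher or lower where limma's Benjamini-Hochberg adjusted p, over the 29585 genes and unnamed features tested, was under 0.05. Every change described below as higher, lower, a rise or a fall passed that threshold. Where groups are said not to overlap, the gene was a called one, and the words only describe its array values. For a gene below the background limit on both arrays of the dimmer group, "at least N-fold" sets the mean of the brighter group against a bound, which on every array of the dimmer group is the lowest signal well above background or, where higher, the value of that gene. Genes are named by the rule given with the processing, and other genes are said to be named after their values were seen.

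The 2 C24 arrays correlated at r = 0.995 and the 2 C12 arrays at r = 0.997 across the features tested, and C24 with C12 arrays at 0.967 to 0.969. Of the probes, 60.3% and 62.4% were well above background on the C24 arrays and 66.2% and 65.1% on the C12 arrays. No spot was saturated. The C24 arrays filled slide row 2 and the C12 arrays row 1, so slide row and feeding time cannot be told apart. The 15289 probes that were well above background on no array of the series had a median change of 0.54, against 0.02 for the features tested and −0.04 for the 9862 dimmest of them. Between HF24 and HF12, in the same slide rows, the median change of those undetected probes was 0.84. The number of arrays limits the precision of all values.

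limma called 13639 of 29585 features (46.1%), with 7066 higher (23.9%) and 6573 lower (22.2%) after 24 weeks. Among the 16732 genes with a symbol 4356 were higher (26.0%) and 4037 lower (24.1%). Rises of 2-fold or more numbered 1349 (4.56%) and falls of that size 1871 (6.32%). As fitted there were 52 rises and 102 falls of 16-fold or more, and 8 rises and 43 falls of 64-fold or more, many of them against readings below background. Among features well above background on all 4 chow arrays, 1008 rises and 1155 falls reached 2-fold, 10 rises and 36 falls 16-fold, and 1 rise and 11 falls 64-fold. The fewest and most calls without 1 array were 10914 and 13013. Since so many features were called, the counts in the lists below stand beside these shares.

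**Figure D1:**
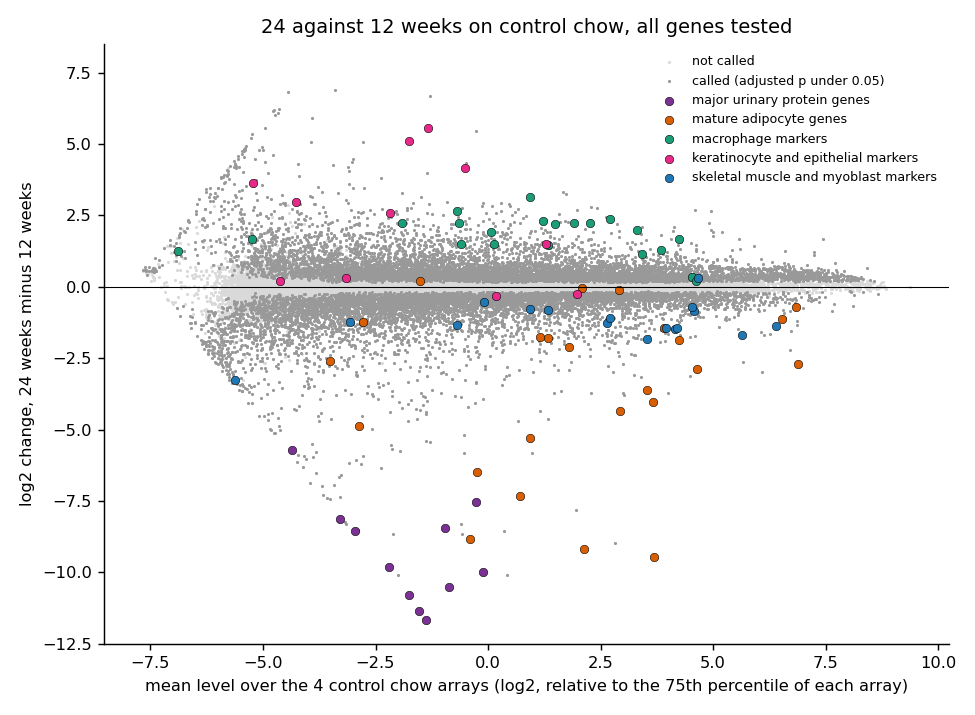
Change from 24 against 12 weeks on control chow (log2, vertical axis) against the mean level over the 4 chow arrays (log2 relative to the 75th percentile, horizontal axis) for all features tested, each a point, with light grey for features not called and dark grey for called ones. Coloured points are the tested members of 5 lists: the major urinary protein and mature adipocyte genes reach the bottom of the plot, and the keratinocyte and macrophage markers lie mostly above 0.

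Genes of mature fat cells held many of the furthest falls. Of 24 mature adipocyte genes tested, 0 were higher and 21 lower, with a median change of −2.66 against 0.02 for all features. Adipoq, which encodes the hormone adiponectin, had levels of −2.52 and −2.38 on the C24 arrays and of 6.67 and 6.79 on the C12 arrays. The groups lay far apart, a change of −9.18 ± 0.08 (limma adjusted p = 2.0e-07) or 581-fold. Cfd, which encodes the serine protease adipsin, had levels of −1.14 and −0.97 on the C24 arrays and of 8.38 and 8.43 on the C12 arrays. The groups did not overlap, and the change was −9.46 ± 0.21 (limma adjusted p = 3.7e-06). The resistin gene Retn (−8.84 ± 0.09) fell likewise, with levels of −4.73 and −4.91 against 4.0 and 4.04.

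Lipid droplet genes of the same list fell too. Plin1, which encodes the perilipin that coats the droplet, had levels of −2.86 and −3.05 on the C24 arrays and of 4.35 and 4.40 on the C12 arrays. Cidec, a droplet fusion gene, had levels of −3.49 and −3.50 on the C24 arrays and of 3.0 on both C12 arrays. Both genes were well above background on all 4 arrays, so these are measured falls of −7.33 ± 0.09 and −6.50 ± 0.06. Outside the list, the catecholamine receptor gene Adrb3 fell further, by −10.08 ± 0.15, with levels of −4.51 and −4.73 on the C24 arrays and of 5.53 and 5.39 on the C12 arrays. The adipogenin gene Adig changed by −8.56 ± 0.06, and the lipogenic gene Thrsp was at least 154-fold lower in C24. The fatty acid binding protein gene Fabp4, named after its values were seen, kept levels of 5.51 and 5.53 on the C24 arrays, against 8.26 and 8.22 on the C12 arrays, a fall of −2.72 ± 0.06. Lipoprotein lipase, encoded by Lpl and also named after its values were seen, fell by 0.73 on the log2 scale. The 3 members not called, named after their values were seen, were the leptin gene Lep (0.19 ± 0.09, limma adjusted p = 0.13), the fatty acid transporter gene Cd36 (−0.10) and the lipogenic regulator gene Mlxipl (−0.06). In these bulk cultures fewer cells of a type and less RNA per cell cannot be told apart.

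The regulators of adipogenesis were lower less evenly. Of 21 tested, 4 were higher and 11 lower, with a median change of −0.41. Pparg, the receptor gene that drives the programme, had levels of 2.86 and 2.88 on the C24 arrays and of 4.77 and 4.81 on the C12 arrays. The groups did not overlap, and the change was −1.92 ± 0.05 (limma adjusted p = 6.8e-06). Cebpa, its partner, changed by −2.17 ± 0.11, Klf15 by −2.42 ± 0.09 and the preadipocyte factor gene Zfp423 by −1.93 ± 0.07. Dlk1, which encodes a brake on adipogenesis, was lower too, with levels of −0.82 and −0.69 in C24 and of 2.23 and 2.06 in C12. The genes that rose were Gata2 (0.84 ± 0.06), Gata3 (0.41 ± 0.07) and Tle3 (0.40 ± 0.06), with Cebpb (0.66 ± 0.06), which acts early in the programme. Gata2 also stands in the list of mast cell markers below, and the part of mast cells in its rise was not tested.

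Genes of mitochondrial respiration and fatty acid oxidation were mostly lower. Of 29 tested, 0 were higher and 25 lower, with a median change of −0.48. The coactivator gene Ppargc1a had levels of −3.92 and −4.35 on the C24 arrays and of 0.67 and 0.49 on the C12 arrays, a change of −4.71 ± 0.21. Acadm, an enzyme gene of fatty acid oxidation, had levels of 2.54 and 2.66 in C24 and of 3.98 and 3.90 in C12, a change of −1.34 ± 0.07. Neither gene overlapped between the groups. Cox8b (−2.58 ± 0.08), Cpt2 (−1.52 ± 0.10) and Acadl (−1.10 ± 0.07) completed the 5 largest falls. The ATP synthase subunit gene Atp5a1 (−0.25) and the respiratory chain gene Ndufa4 (−0.76), both named after their values were seen, fell by less.

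**Figure D2:**
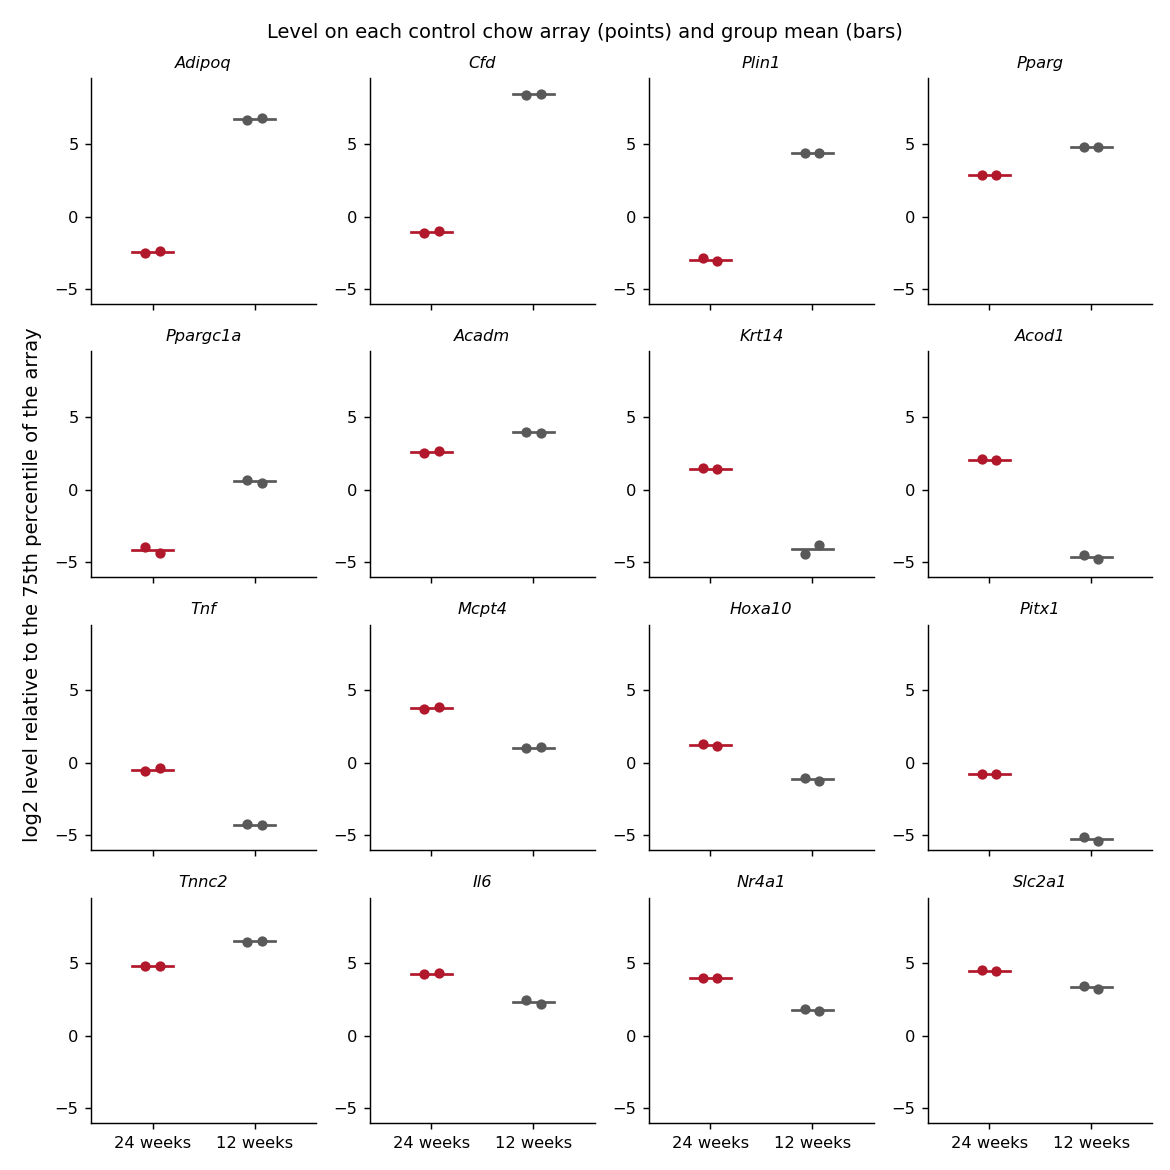
Level on each control chow array (log2 relative to the 75th percentile, vertical axis, the same scale in every panel) for 16 genes. Each panel shows the 2 C24 arrays at left in red and the 2 C12 arrays at right in grey, with a bar at each group's mean. All 16 genes were chosen among called ones, so the separation of the groups in the panels follows from that choice.

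The 11 tested members of the major urinary protein family were all lower, and several were the largest falls of the comparison. These genes encode lipocalins that carry pheromones, made chiefly by the liver. Mup1 had levels of −7.16 and −7.29 on the C24 arrays, not well above background, and of 4.43 and 4.48 on the C12 arrays, so it was at least 737-fold lower in C24. Mup19 was at least 991-fold, Mup21 at least 703-fold, Mup18 at least 595-fold, Mup17 at least 420-fold and Mup20 at least 219-fold lower. In C24 1 of the 11 genes, Mup2, was well above background on both arrays, and in C12 all 11 were. The median change was −9.83, and −8.34 where members below background in C24 are set to their bound. The genes are copies of varying closeness, so 1 transcript may light several probes, which was not tested. The 11 values therefore cannot be taken as independent. RefSeq promoters of 300 bases around the start were listed for 8 of the 11, and the 28 pairs were identical at 85.14% to 99.66% of aligned bases. The promoters of Mup18 and Mup17 are shown because these genes fell together, and capitals mark bases that differ or lack a partner in their alignment, which held 282 identical bases of 293. They lie on the minus strand of GRCm38.p6 at chr4:61674045-61674344 and chr4:61595783-61596082.
Mup18: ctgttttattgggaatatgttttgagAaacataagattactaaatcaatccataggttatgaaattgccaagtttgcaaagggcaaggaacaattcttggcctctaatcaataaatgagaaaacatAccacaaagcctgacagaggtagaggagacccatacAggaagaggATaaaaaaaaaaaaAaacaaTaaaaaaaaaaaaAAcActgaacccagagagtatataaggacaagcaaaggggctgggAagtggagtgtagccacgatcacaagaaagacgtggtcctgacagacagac
Mup17: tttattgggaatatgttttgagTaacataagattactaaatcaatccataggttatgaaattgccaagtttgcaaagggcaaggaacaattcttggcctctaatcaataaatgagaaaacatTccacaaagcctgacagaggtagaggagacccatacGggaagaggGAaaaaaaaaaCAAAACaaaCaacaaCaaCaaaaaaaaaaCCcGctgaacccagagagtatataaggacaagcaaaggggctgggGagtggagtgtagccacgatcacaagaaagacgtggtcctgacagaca

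The carbonic anhydrase genes, which encode enzymes that hydrate carbon dioxide, went both ways, with 2 higher and 5 lower of 11 tested and a median of −0.29. Car3, a form abundant in fat and muscle, had levels of −1.53 and −1.83 on the C24 arrays and of 7.31 and 7.29 on the C12 arrays, a fall of −8.98 ± 0.19. Car6 rose by 2.83 ± 0.07, with levels of 1.47 and 1.54 in C24 and of −1.24 and −1.40 in C12. The hypoxia-induced Car9 rose by 1.81 ± 0.09. The non-coding transcript D630039A03Rik was at least 87.1-fold lower in C24.

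Macrophage genes were higher after 24 weeks. Of 21 markers 19 were higher and 0 lower, with a median change of 1.93. Adgre1, which encodes a surface antigen of mouse macrophages, had levels of 3.08 and 2.99 on the C24 arrays and of 0.91 and 0.69 on the C12 arrays, a change of 2.23 ± 0.09. C1qa, a complement chain made by macrophages, had levels of 2.43 and 2.59 in C24 and of −0.75 and −0.56 in C12, a change of 3.16 ± 0.09. For both genes every C24 array lay above every C12 array. Aif1 (2.64 ± 0.06), the lysozyme gene Lyz2 (2.37 ± 0.07) and C1qb (2.30 ± 0.06) followed. The 2 not called, named after their values were seen, were Itgam (0.19 ± 0.07, limma adjusted p = 0.075) and Cd163 (1.67). Summed over the list on the linear scale, where 1 is the 75th percentile of an array, the level was 203 to 211 in C24 and 88.4 to 90.2 in C12. Well above background on both arrays were 20 of the 21 genes in C24 and 19 in C12.

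Inflammatory messengers rose alongside. Of 25 secreted inflammatory genes 19 were higher and 1 lower, with a median of 1.33 (1.21 where members below background in one group are set to their bound). Tnf had levels of −0.58 and −0.39 on the C24 arrays and of −4.25 and −4.31 on the C12 arrays, a change of 3.80 ± 0.08. Il6 had levels of 4.26 and 4.29 in C24 and of 2.42 and 2.19 in C12, a change of 1.97 ± 0.09 (limma adjusted p = 3.6e-05). Neither cytokine gene overlapped between the groups. The chemokine gene Ccl20 (2.92 ± 0.12) and the prostaglandin synthase gene Ptgs2 (2.63 ± 0.09) rose, and Csf2 and Cxcl2 were at least 2.54-fold and at least 3.40-fold higher. The stromelysin gene Mmp3 (−0.63 ± 0.06) was the 1 member that fell. Outside the lists, Acod1, whose enzyme makes itaconate in activated macrophages, had levels of 2.07 and 2.01 on the C24 arrays and of −4.52 and −4.74 on the C12 arrays. Its rise of 6.67 ± 0.09, or 102-fold, was the largest of a gene well above background on all 4 arrays. Ccl12, a monocyte chemokine gene also outside the lists, rose by 5.45 ± 0.05. The macrophage markers above moved with these genes, and their part in the result was not tested.

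All 9 mast cell markers tested were higher, with a median change of 2.43 and a summed level of 31.4 to 34.1 in C24 and of 5.73 to 6.16 in C12. The chymase gene Mcpt4 had levels of 3.72 and 3.85 on the C24 arrays and of 0.98 and 1.1 on the C12 arrays, a change of 2.75 ± 0.08. Cpa3, Hdc and Cma1, genes of granule proteases and of histamine synthesis, rose by 2.84 ± 0.11, 2.76 ± 0.11 and 2.67 ± 0.06. Lymphocyte markers rose in 6 of 13, with 0 lower and a median of 0.55, among them the kinase gene Lck (1.16 ± 0.08) and the granzyme gene Gzmb (at least 4.99-fold higher). Their summed level was 5.68 to 5.81 in C24 and 4.59 to 5.04 in C12. Most were dim, with median levels of −3.38 and −4.30 on the C24 arrays and of −4.59 and −4.89 on the C12 arrays. The T cell receptor chain gene Cd3e (0.00), named after its values were seen, was not called. The antibody joining chain gene Jchain was at least 19.1-fold higher in C24.

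Complement genes divided, with 7 higher and 8 lower of 16. The rises included the C1q chains, properdin (Cfp, 2.02 ± 0.06) and the C5a receptor gene C5ar1 (2.20 ± 0.14). The falls included the adipocyte gene Cfd, C3 (−2.23 ± 0.07) and Cd55 (−1.02 ± 0.06). C3, the central component, had levels of 5.63 and 5.56 in C24 and of 7.85 and 7.79 in C12. C1qa, C1qb and C1qc also stand in the macrophage list and Cfd in the mature adipocyte list, so the lists share members. The part of either cell type in the result was not tested.

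Immediate early and AP-1 genes, which answer growth factors and stress within minutes, rose in 18 of 21, with 0 lower and a median of 1.08. Nr4a1, an orphan nuclear receptor gene, had levels of 4.0 and 3.94 on the C24 arrays and of 1.82 and 1.70 on the C12 arrays, a change of 2.21 ± 0.07. Egr1 (1.85 ± 0.08), Ier2 (1.74 ± 0.07), Fosl1 (1.72 ± 0.12) and Fos (1.45 ± 0.08) followed. The 3 not called, named after their values were seen, were Jun (0.13), Jund (0.06) and Nr4a3 (−0.19).

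Genes of the ATF4 pathway and the unfolded protein response, which adjust amino acid supply and protein folding, rose in 16 of 21, with 0 lower and a median of 0.60. Chac1, an ATF4 target that degrades glutathione, had levels of 3.89 and 4.02 in C24 and of 2.68 and 2.71 in C12, a change of 1.26 ± 0.06. Trib3 (1.09 ± 0.11), Sdf2l1 (0.95 ± 0.07), Psat1 (0.93 ± 0.06) and Atf3 (0.86 ± 0.05) followed. The chaperone gene Hspa5, named after its values were seen, changed by 0.60 ± 0.07.

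Hypoxia response and glycolysis genes rose in 16 of 25, with 2 lower and a median of 0.57. The glucose transporter gene Slc2a1 had levels of 4.51 and 4.42 on the C24 arrays and of 3.43 and 3.21 on the C12 arrays, a change of 1.14 ± 0.09. The glycolytic enzyme gene Aldoc (1.92 ± 0.09) rose further, and glycolytic genes such as Eno1 (0.72 ± 0.06) and Pgk1 (0.57 ± 0.07), named after their values were seen, rose by less. The 2 that fell were Pfkfb3 (−1.10 ± 0.06) and the mitophagy gene Bnip3 (−0.54 ± 0.08). 

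Contractile and TGF-beta response genes rose in 18 of 22, with 3 lower and a median of 0.63. Inhba, which encodes an activin subunit, had levels of 5.93 and 5.99 on the C24 arrays and of 3.17 and 3.34 on the C12 arrays, a change of 2.70 ± 0.07. The smooth muscle myosin gene Myh11 changed by 2.05 ± 0.06 and the matricellular gene Ccn1 by 1.30 ± 0.07. The contractile genes Acta2 (0.51 ± 0.09) and Tagln (0.59 ± 0.06), named after their values were seen, rose by less. The falls were Id1 (−0.94 ± 0.06), Des (−0.80 ± 0.07) and Id3 (−0.31 ± 0.06), and the call for Id3 was lost without C24 replicate 1 (limma adjusted p = 0.054). Pericyte markers rose in 6 of 10 and fell in 2, with Ndufa4l2 (2.78 ± 0.06) and Rgs5 (2.40 ± 0.08) highest and Steap4 (−1.67 ± 0.14) lowest, and their summed level was 92.4 to 96.4 in C24 and 80.9 to 81.1 in C12. Their part in the contractile result was not tested.

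Matrix genes changed selectively. Of 27 collagen and matrix genes 11 were higher and 5 lower, with a median of 0.10. Col11a1 (1.69 ± 0.09), the tenascin gene Tnc (1.49 ± 0.08), the crosslinking enzyme gene Loxl2 (0.97 ± 0.09) and the periostin gene Postn (0.87 ± 0.06) rose. The small proteoglycan genes Lum (−1.91 ± 0.10) and Dcn (−0.66 ± 0.09) and the elastin gene Eln (−1.30 ± 0.18) fell. Lum had levels of 3.08 and 2.86 in C24 and of 4.94 and 4.81 in C12, and Tnc had levels of 3.91 and 4.11 in C24 and of 2.52 in both C12 arrays. The main fibrillar collagen genes Col1a1 (0.10), Col1a2 (0.16) and Col3a1 (0.02), named after their values were seen, were not called. Among 24 proteases and inhibitors 8 were higher and 10 lower (median −0.18), with Mmp9 (2.89 ± 0.20) highest and Adamts5 (−1.50 ± 0.16) and Mmp11 (−1.05 ± 0.05) among the falls.

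Signals between cells also shifted in both directions. Growth and angiogenic factors rose in 13 and fell in 9 of 27 genes (median 0.18). The placental growth factor gene Pgf (1.51 ± 0.06), the neuregulin gene Nrg1 (1.40 ± 0.09) and the platelet-derived growth factor genes Pdgfa (1.32 ± 0.08) and Pdgfc (1.08 ± 0.10) rose. The vessel-stabilising Angpt1 (−2.28 ± 0.10), Igf2 (−1.45 ± 0.08) and the midkine gene Mdk (−1.22 ± 0.06) fell. In the BMP, GDF and activin pathway 9 were higher and 9 lower of 28 (median 0.06, with the sign turned by quantile normalization). Bmp7, which promotes brown adipogenesis, had levels of −3.27 and −3.77 on the C24 arrays and of 0.68 and 0.58 on the C12 arrays, a fall of −4.15 ± 0.17. Grem1, a BMP antagonist gene, had levels of 1.79 and 1.78 in C24 and of −0.73 and −0.71 in C12, a rise of 2.50 ± 0.05.

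Insulin-like growth factor pathway genes went both ways. Of 13 receptor, substrate and binding protein genes 4 were higher and 7 lower (median −0.25), with the binding protein gene Igfbp3 (1.79 ± 0.05) highest, Irs1 (−1.62 ± 0.05), Igfbp2 (−1.55 ± 0.07) and the insulin receptor gene Insr (−1.24 ± 0.14) lowest, and Igf1r (0.59 ± 0.07) among the rises. Of 23 imprinted growth regulator genes 3 were higher and 16 lower, with a median of −0.60. Beside Dlk1 and Igf2 they included Peg3 (−2.38 ± 0.16), which had levels of −3.66 and −3.46 in C24 and of −1.31 and −1.06 in C12. Of 32 Wnt ligand, receptor and antagonist genes 7 were higher and 15 lower (median −0.07), with Wnt4 (−2.26 ± 0.12) and the Wnt target Axin2 (−1.85 ± 0.15) among the falls and Ror2 (0.68 ± 0.09) and Sfrp2 (0.66 ± 0.07) among the rises.

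Skeletal muscle and myoblast genes were lower. Of 17 markers 1 was higher and 16 lower, with a median of −1.25 and a summed level of 194 to 195 in C24 and of 440 to 449 in C12. Tnnc2, a fast troponin gene, had levels of 4.83 and 4.77 on the C24 arrays and of 6.46 and 6.53 on the C12 arrays, a fall of −1.70 ± 0.07. Myh8, the perinatal myosin gene, fell by 1.84 on the log2 scale and Pax7, the satellite cell factor gene, was at least 2.12-fold lower in C24, where it was not well above background. The differentiation factor gene Myog (−1.11 ± 0.06), named after its values were seen, kept levels of 2.11 and 2.19 in C24, against 3.23 and 3.28 in C12. The 1 member that was higher, Actc1 (0.32 ± 0.09), lost its call without any 1 array other than C12 replicate 2 and C24 replicate 1, with limma adjusted p from 0.0506 to 0.141. The E-box CAGCTG, a site of myogenic factors that reads the same on both strands, lay in 4 of 12 promoters of members called lower (Des, and Acta1, Chrna1 and Ckm, named after their values were seen) and in 18.5% of the promoters of 13209 genes tested.

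Keratinocyte genes rose in 7 of 11, with 2 lower and a median of 2.59 (2.24 at the bounds). Krt14, a keratin gene of basal skin cells, had levels of 1.46 and 1.43 on the C24 arrays and of −4.43 and −3.80 on the C12 arrays, a change of 5.57 ± 0.20. Krt5, its partner, had levels of 0.74 and 0.83 in C24 and of −4.34 and −4.26 in C12, a change of 5.09 ± 0.13. Krt17 rose by 4.17 ± 0.10, the desmoplakin gene Dsp was at least 4.74-fold and Lgals7 at least 7.26-fold higher. The summed level was 16.9 to 17.3 in C24 and 7.35 to 7.77 in C12. The falls were small, Krt10 (−0.34 ± 0.10) and Trp63 (−0.25 ± 0.07), and without C24 replicate 1 both calls were lost (limma adjusted p = 0.174 for Krt10 and 0.057 for Trp63), as they were without several other single arrays (up to 0.169 and 0.12). Other epithelial and skin genes stood among the 15 largest rises, namely the maspin gene Serpinb5 (at least 8.41-fold higher) and Skint4 (at least 15.9-fold higher). Also among the 15 were genes not well above background in C12 that are known from sensory or germline tissue or of unsure role, which were Olfr834 (at least 17.4-fold), Vmn1r240 (at least 8.36-fold), Cst12 (at least 6.23-fold), Obox5 (at least 5.23-fold) and Gm30411 (at least 5.84-fold). The call for Gm30411 was lost without any 1 of the 4 chow arrays, with limma adjusted p from 0.056 to 0.103. With all values raised to a common floor, the call for Cst12 was lost too (limma adjusted p = 0.083).

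Positional genes separated by their place in the Hox clusters. Of 38 Hox and other positional genes 8 were higher and 20 lower, with a median of −0.38. Over tested genes of paralogs 2 to 13 in the 4 Hox clusters, also those outside the list, paralog number went with direction. The cut between paralogs 8 and 9 was not part of the planned lists, so the counts on its 2 sides only describe these values. Of 20 genes of paralogs 2 to 8, 0 were higher and 15 lower, with a median of −0.69. Of 11 Hox genes of paralogs 9 to 13, 8 were higher and 1 lower, with a median of 0.93. These posterior genes are used in the rear trunk and hind limb of the embryo. Hoxc10 had levels of −0.11 and 0.19 on the C24 arrays and of −6.64 and −7.07 on the C12 arrays, not well above background, and was at least 51.6-fold higher in C24. Hoxc11, with levels of −1.07 and −1.01 in C24 and of −7.93 and −7.77 in C12, was at least 24.4-fold higher. Both genes passed from undetected to clearly measured, and no array of one group came near the other. Hoxa10 had levels of 1.26 and 1.18 in C24 and of −1.06 and −1.26 in C12, a change of 2.38 ± 0.09. Hoxa11 (3.61 ± 0.35) was well above background on 1 of the 2 C12 arrays. The posterior gene that fell was Hoxd9 (−0.61 ± 0.11), named after its values were seen.

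Factors of limb identity changed too. Pitx1, a factor gene of the hind limb, had levels of −0.75 on both C24 arrays and of −5.09 and −5.37 on the C12 arrays, a rise of 4.48 ± 0.11. Tbx5, a factor gene of the fore limb, had levels of −1.61 and −1.41 in C24 and of −0.32 and −0.14 in C12, a fall of −1.28 ± 0.11. Falls of Hoxa2 (−1.28 ± 0.06), Hoxb6 (−0.99 ± 0.07), Hoxc5 (−0.98 ± 0.06) and Hoxd8 (−0.96 ± 0.06) were of similar size to that of Tbx5. The labels give abdominal subcutaneous fat for both feeding times.

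**Figure D3:**
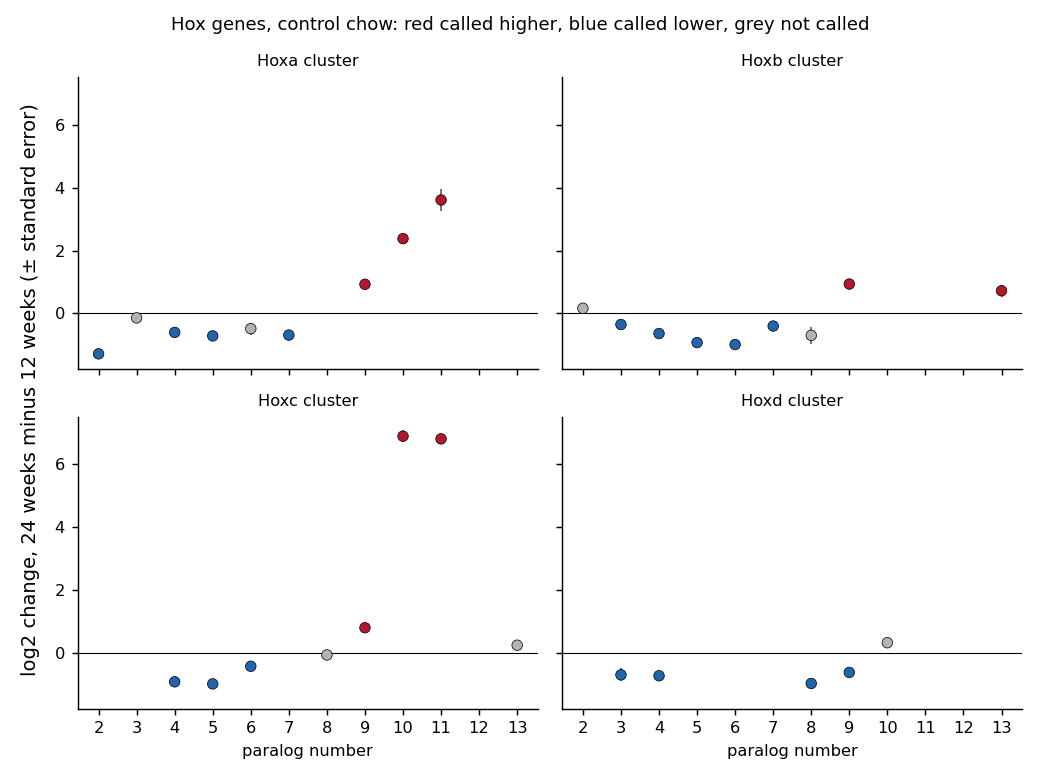
Change from 24 against 12 weeks on control chow (log2, vertical axis) of the tested Hox genes of paralogs 2 to 13 by paralog number (horizontal axis) in the 4 clusters, with bars for the standard error. Red points are called higher, blue points lower and grey points not called: paralogs 2 to 8 lie mostly below 0 and paralogs 9 to 13 mostly above it, with Hoxc10 and Hoxc11 highest.

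Changes of the cell cycle genes, called or not, ran from −1.30 to 0.72 on the log2 scale. Of 32 tested 6 were higher and 15 lower, with a median of −0.20, and without C24 replicate 1 the counts were 2 higher and 10 lower. The proliferation marker Mki67 had levels of 3.18 and 3.28 on the C24 arrays and of 3.51 and 3.59 on the C12 arrays, a change of −0.32 ± 0.06 (limma adjusted p = 0.008). The falls included the mitotic genes Cenpf (−0.75 ± 0.08), Kif20a (−0.73 ± 0.09), Nusap1 (−0.70 ± 0.06) and Ccnb2 (−0.53 ± 0.06). The replication licensing gene Cdc6 (0.72 ± 0.05) and the G1 cyclin gene Ccnd1 (0.42 ± 0.06) were the largest rises. The letters TTTGAA, known as the cell cycle homology region and searched on both strands, lay in 7 of 12 promoters of members called lower, in 0 of 5 of those called higher, in 5 of 8 of those not called and in 15.5% of the promoters of 13209 genes tested. A match is a description of letters in a 300-base window and not a site in use. Ccnb2 on the minus strand at chr9:70421505-70421804, Cenpf on the minus strand at chr1:189688037-189688336 and Plk1 on the plus strand at chr7:122159185-122159484, all RefSeq promoters of GRCm38.p6, are shown as examples of lowered mitotic genes, with the motif in capitals. Plk1, which encodes a mitotic kinase and was named after its values were seen, changed by −0.32 ± 0.07.
Ccnb2: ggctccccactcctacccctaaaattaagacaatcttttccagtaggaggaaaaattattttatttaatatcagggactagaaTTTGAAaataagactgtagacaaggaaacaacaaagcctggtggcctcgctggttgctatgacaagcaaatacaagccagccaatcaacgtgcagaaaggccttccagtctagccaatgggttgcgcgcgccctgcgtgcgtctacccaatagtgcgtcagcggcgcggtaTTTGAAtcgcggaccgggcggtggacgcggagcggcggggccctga
Cenpf: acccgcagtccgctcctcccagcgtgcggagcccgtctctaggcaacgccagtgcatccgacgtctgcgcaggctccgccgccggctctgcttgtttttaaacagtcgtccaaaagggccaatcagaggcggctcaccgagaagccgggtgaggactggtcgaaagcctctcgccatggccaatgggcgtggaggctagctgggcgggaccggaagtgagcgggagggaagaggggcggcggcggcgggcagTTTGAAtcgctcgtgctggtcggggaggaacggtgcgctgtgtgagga
Plk1: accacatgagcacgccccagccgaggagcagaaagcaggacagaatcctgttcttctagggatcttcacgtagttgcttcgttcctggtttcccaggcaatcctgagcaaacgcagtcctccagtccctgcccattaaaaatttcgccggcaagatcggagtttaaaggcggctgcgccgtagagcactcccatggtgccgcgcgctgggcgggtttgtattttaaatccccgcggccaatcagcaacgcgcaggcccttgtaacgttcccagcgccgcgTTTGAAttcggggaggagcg

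Inhibitors of the cell cycle and p53 targets, often read as signs of senescence, were lower more often than higher. Of 23 tested 4 were higher and 12 lower, with a median of −0.33. Cdkn1a, which encodes p21, had levels of 3.20 and 3.40 on the C24 arrays and of 3.78 and 3.97 on the C12 arrays, a change of −0.58 ± 0.09 (limma adjusted p = 0.0039). Cdkn2a, the gene of p16INK4a and p19ARF, changed by −0.06 ± 0.10 (limma adjusted p = 0.67) and was not called. The p53 target genes Trp53inp1 (−1.28 ± 0.06) and Phlda3 (−0.76 ± 0.06) and the inhibitor genes Cdkn2c (−1.03 ± 0.11), Cdkn2d (−0.75 ± 0.06) and Cdkn2b (−0.59 ± 0.06) fell. Plk2 (2.29 ± 0.08) and Btg2 (1.25 ± 0.09) rose. Among 27 ageing and nutrient sensing genes 5 were higher and 9 lower (median −0.02), with Hmga2 (1.25 ± 0.09) highest and the kinase gene Prkaa2 (−1.15 ± 0.08) lowest. The sirtuin gene Sirt3 (−0.69 ± 0.09) and the growth hormone receptor gene Ghr (−0.86 ± 0.06) also fell.

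Type I interferon response genes leaned higher, with 14 higher and 4 lower of 26 and a median of 0.27. Oas3 (1.24 ± 0.16), Rsad2 (1.17 ± 0.13), Isg20 (1.08 ± 0.06), Oas2 (0.99 ± 0.06) and Oasl1 (0.97 ± 0.08), genes of antiviral effectors, rose furthest. Rsad2 had levels of −0.03 and 0.03 on the C24 arrays and of −1.33 and −1.01 on the C12 arrays. The core of the interferon-stimulated response element, GAAA followed after any 2 bases by GAAA and searched on both strands, lay in 5 of 11 promoters of members called higher, in 3 of 3 of those called lower, in 3 of 7 of those not called and in 3.79% of the promoters of 13209 genes tested. The promoters of Oas3 at chr5:120777610-120777909 and Rsad2 at chr12:26456403-26456702, both RefSeq entries on the minus strand of GRCm38.p6, are shown for the 2 largest rises, with the match in capitals.
Oas3: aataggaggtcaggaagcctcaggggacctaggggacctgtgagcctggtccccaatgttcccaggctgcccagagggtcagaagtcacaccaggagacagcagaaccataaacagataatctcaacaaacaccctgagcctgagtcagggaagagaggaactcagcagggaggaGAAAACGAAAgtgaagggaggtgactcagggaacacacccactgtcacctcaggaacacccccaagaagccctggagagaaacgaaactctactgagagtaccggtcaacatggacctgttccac
Rsad2: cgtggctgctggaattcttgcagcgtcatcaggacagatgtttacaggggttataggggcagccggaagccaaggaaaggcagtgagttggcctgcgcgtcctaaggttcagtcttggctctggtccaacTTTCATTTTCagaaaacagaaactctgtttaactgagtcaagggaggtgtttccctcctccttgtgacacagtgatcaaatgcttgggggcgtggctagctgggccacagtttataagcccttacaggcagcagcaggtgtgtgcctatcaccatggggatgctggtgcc

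Genes induced by interferon gamma had no common direction on chow. Of 18 tested 3 were higher, 6 lower and 9 not called, with a median of −0.18 (−0.06 at the bounds). The ubiquitin-like gene Ubd had levels of −4.65 and −4.46 on the C24 arrays and of −0.74 and −0.94 on the C12 arrays, a fall of −3.72 ± 0.09. Iigp1 (−1.39 ± 0.07) and the chemokine gene Cxcl9 (−1.26 ± 0.05) fell, and Irf8 (1.66 ± 0.07) and Cxcl10 (1.05 ± 0.11) rose. Antigen presentation genes were higher in 6 and lower in 6 of 19 (median −0.08), or 5 and 2 without either C24 array. The class II genes H2-Ab1 (1.51 ± 0.07) and Cd74 (1.15 ± 0.13), used by macrophages and other presenting cells, rose. The class I heavy chain gene H2-K1 (−0.41 ± 0.07) and the peptide transporter gene Tap1 (−0.61 ± 0.07) fell.

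The stromal identity of the cultures was measured in both groups. All 22 stromal and adipose progenitor markers tested were well above background on both arrays of each group, 9 were higher and 5 lower, and the median change was 0.08. Thy1 (0.31 ± 0.06) and Pdgfra (0.30 ± 0.06), named after their values were seen, and Cd44 (0.85 ± 0.13) rose by less than 2-fold. Nt5e, which encodes CD73, fell by 2.51 on the log2 scale, and Pi16 (−1.04 ± 0.11), Dpp4 (−0.82 ± 0.06) and Fap (−0.78 ± 0.11), markers of progenitors and activated fibroblasts, fell too. Pi16 had levels of 2.60 and 2.39 in C24 and of 3.56 and 3.52 in C12. Of 19 osteogenic, chondrogenic and tendon genes 4 were higher and 5 lower (median −0.11), with the alkaline phosphatase gene Alpl (−1.57 ± 0.16) and Scx (−1.45 ± 0.08) lowest and Spp1 (0.55 ± 0.06) among the rises. Of 22 antioxidant and metallothionein genes 7 were higher and 9 lower (median 0.08, with the sign turned by quantile normalization), with the catalase gene Cat (−1.70 ± 0.08) lowest and Srxn1 (0.88 ± 0.08) highest.

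Markers of further cell types moved as well. Endothelial markers were higher in 14 and lower in 1 of 17, with a median of 0.94 and a summed level of 75.4 to 79.1 in C24 and of 42.7 to 44.7 in C12. The junction gene Cldn5 (1.33 ± 0.08) rose and the receptor gene Tek (−0.71 ± 0.10) fell. Of 11 Schwann and glial markers 6 were higher and 1, S100b (−0.63 ± 0.09), was lower (median 0.36). Of 5 mesothelial markers 3, the keratin genes Krt8, Krt18 and Krt19, rose by 1.48 to 1.63, and the defining genes Wt1 (−0.07) and Msln (0.01), named after their values were seen, were not called. The erythroid list held 2 tested genes, of which the 1 call, Slc4a1, was lower and was lost without any 1 chow or HF12 array, with limma adjusted p from 0.0529 to 0.171.

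**Figure D4:**
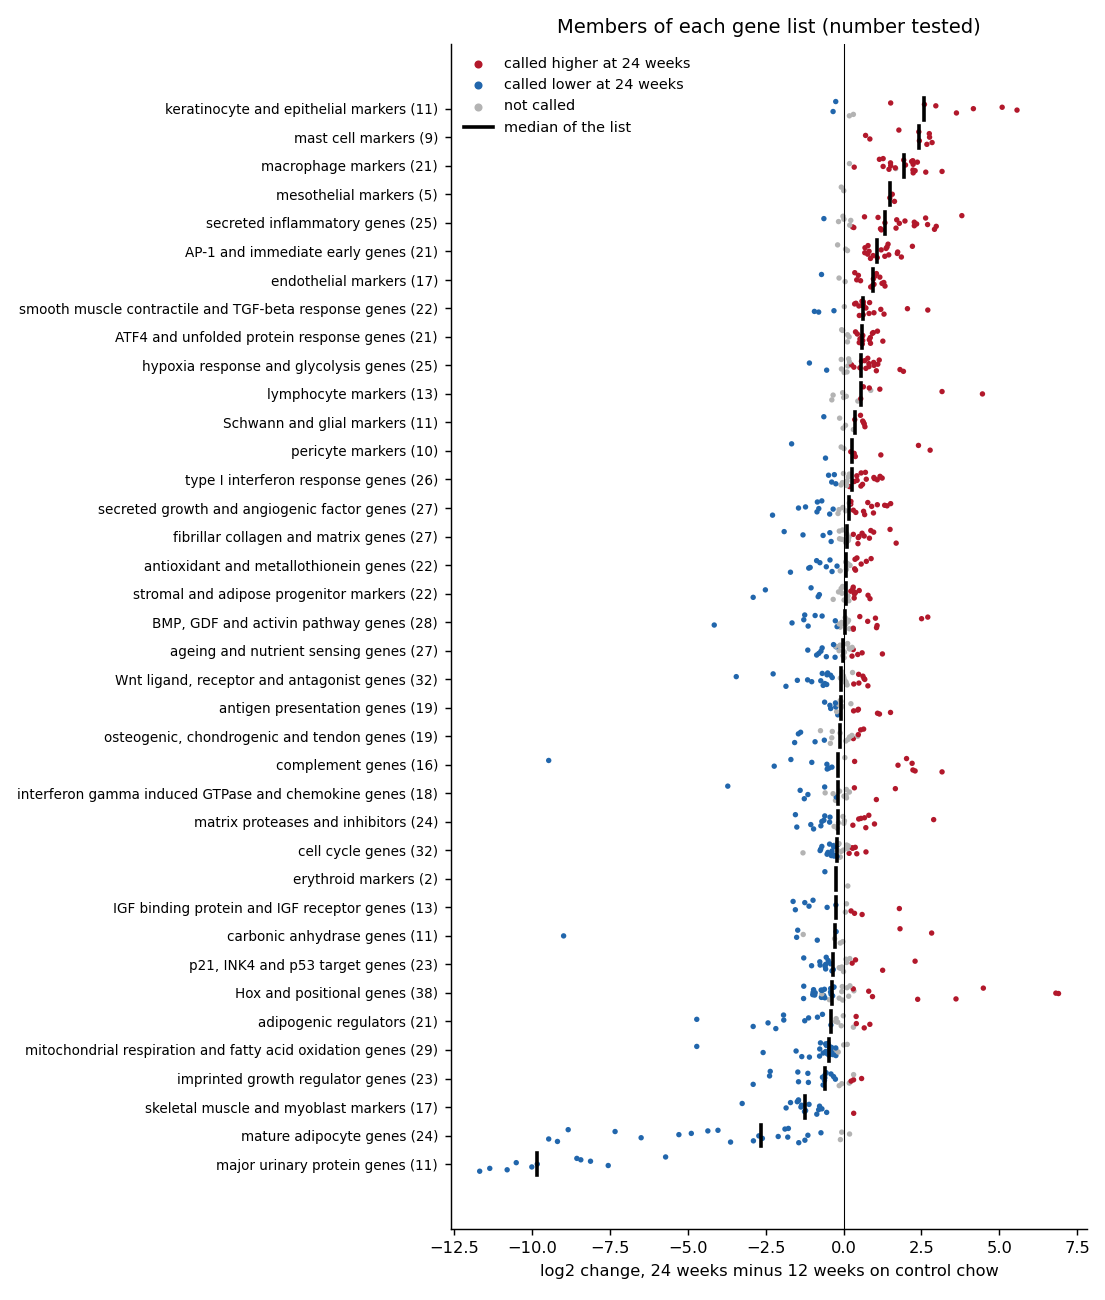
Change from 24 against 12 weeks on control chow (log2, horizontal axis) of every tested member of the 38 lists, with the number tested beside each list name. Each point is a gene, red where called higher, blue where called lower and grey where not called, and the black bar is the list's median, from −9.83 for the major urinary protein genes to 2.59 for the keratinocyte markers.

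The same interval on the high-fat diet served to show where the chow change differed. These arrays lay in the same slide rows as the chow arrays of their feeding time. limma called 13858 of 29585 features (46.8%) between HF24 and HF12, 6654 higher (22.5%) and 7204 lower (24.4%), and by at least 2-fold 726 higher (2.45%) and 2082 lower (7.04%). The chow change differed from the high-fat change in 8844 features (29.9%) in limma's test of the difference. Of the features tested, 4724 differed toward higher values on chow (16%) and 4120 toward lower values (13.9%). Called higher on both diets were 3732 features, 52.8% of the chow rises and 56.1% of the high-fat rises, and lower on both were 3192, 48.6% of the chow falls and 44.3% of the high-fat falls. A further 1174 features rose on chow and fell on the high-fat diet, and 494 did the reverse.

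Fat cell genes fell on both diets, further on chow. The median of the mature adipocyte list was −2.66 on chow and −1.06 on the high-fat diet. Of 24 genes, 17 differed toward lower values on chow and 4 toward higher values. Pparg changed by −1.92 on chow and −0.31 on the high-fat diet, where its HF24 levels were 3.09 and 3.10 and its HF12 levels 3.39 and 3.43, and the difference was −1.61 ± 0.07 (limma adjusted p = 8.5e-05). Adipoq changed by −9.20 on the high-fat diet, and the difference of 0.02 ± 0.11 was not called. Mitochondrial genes had a median of −0.48 on chow and −0.05 on the high-fat diet, and 21 of 29 differed toward lower values on chow.

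Macrophage markers moved in opposite directions. On chow 19 of 21 rose, and on the high-fat diet 3 rose and 16 fell, with a median of −0.46, so that 20 of 21 differed toward higher values on chow. Adgre1 had levels of 4.02 on both HF24 arrays and of 4.41 and 4.53 on the HF12 arrays, above its level in either chow group. Keratinocyte markers had a median of 2.59 on chow and 0.24 on the high-fat diet, and 7 of 11 differed, with Krt14 changing by 5.57 on chow and 1.81 on the high-fat diet. Schwann markers had a median of 0.36 on chow and −1.14 on the high-fat diet. Mast cell markers rose on both diets, with medians of 2.43 and 2.83.

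Cell cycle and interferon gamma genes took different paths on the diets. Of 32 cell cycle genes 28 rose and 1 fell on the high-fat diet, with a median of 0.54, and 29 differed toward lower values on chow. Of 18 interferon gamma genes 15 rose and 1 fell on the high-fat diet, with a median of 1.64, and 15 differed toward lower values on chow. Cxcl9 changed by −1.26 on chow and by 3.76 on the high-fat diet. Antigen presentation genes had a median of −0.08 on chow and 0.70 on the high-fat diet. Skeletal muscle markers fell on both diets, less on chow, with medians of −1.25 and −2.95.

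Posterior Hox genes rose on both diets. Of 11 of paralogs 9 to 13, 8 rose and 2 fell on the high-fat diet, with a median of 0.97 against 0.93 on chow. Hoxc11 changed by 6.81 on chow and by 6.74 on the high-fat diet as fitted, with the 12-week arrays not well above background on either diet. The anterior genes of paralogs 2 to 8 had a median of −0.69 on chow and −0.11 on the high-fat diet. The immediate early list had medians of 1.08 and 0.61 and the secreted inflammatory list of 1.33 and 0.89 on chow and the high-fat diet.

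**Figure D5:**
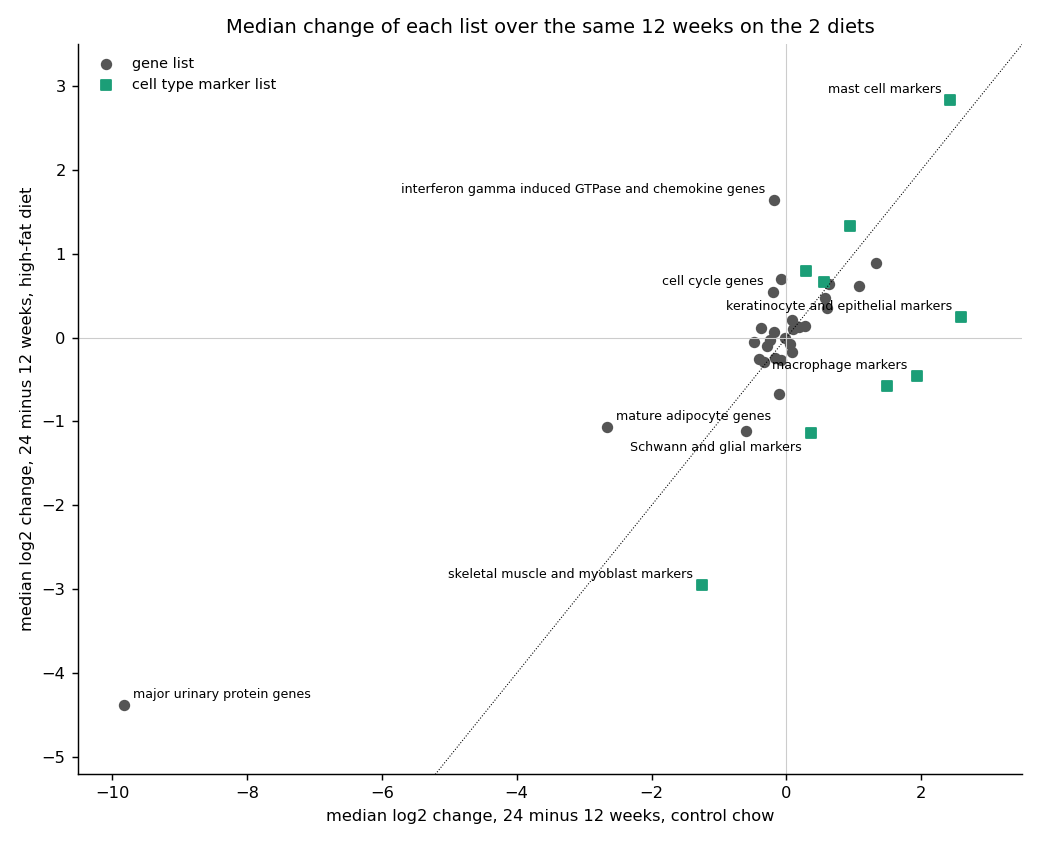
Median change of each list from 24 against 12 weeks on control chow (log2, horizontal axis) against the same interval on the high-fat diet (log2, vertical axis), with grey circles for gene lists, green squares for cell type markers and a dotted line where both are equal. The macrophage, keratinocyte and Schwann markers lie below the line on the right, the interferon gamma and cell cycle genes lie above it, and the erythroid list of 2 genes is left out.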

How the data were processed

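Total RNA of cultured cells, 8 samples in all, was labelled with Cy3 and hybridised to 1-colour Agilent arrays on 1 slide. Per the file headers, the authors' scanner software, Agilent Feature Extraction 11.0.1.1, wrote a background-subtracted and spatially detrended intensity per spot, with array coordinates of build mm9. The authors' deposited value table held 38475 probes, whose log2 values equalled the log2 intensity plus 1 constant per array at the 38346 probes matched. Scale and direction are therefore known, and it served as an alternative.

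Control spots and 192 probes with every spot flagged as an outlier on some array were left out. Probes well above background on both arrays of at least 1 of 4 groups were kept (37650), and the kept probe with the highest mean stood for a gene, which gave 29585 features. Names came from RefSeq GRCm38.p6 for 58.3% of probes, and probes without a match keep the name in the files. limma 3.58.1 (R 4.3.3) fitted 1 mean per group over all 8 arrays with 4 residual degrees of freedom, two-sided, and 2 arrays against 2 could not go below an exact p of 0.333 on their own. Tables and figures were made with Python 3.11.15, pandas 2.3.3 and matplotlib 3.10.9. Data were also simulated for the control chow comparison over 29585 features, with independent normal noise, no slide effect and 29385 features left unchanged. There 64% of log2 changes of 1 and 94% of changes of 2 were recovered, with 13 false calls among the unchanged features. The real comparison called 13639 features and slide row coincided with time, so these values give neither its error rate nor its power.

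Among called genes with a symbol, the 15 highest and 15 lowest, the 5 largest changes each way in each of 38 lists, the 6 highest and 6 lowest differences between diets, and Cdkn1a, Cdkn2a, Il6, Pparg and Mki67 were named. The members and lists were chosen with earlier results of these data known. Alternatives changed the background correction, scaling, filter, probe choice, variance model, arrays in the fit, replicate block and single arrays. The normexp alternative used the median signal, since the files used here hold no mean signal. Some genes are not reported here. Replicate numbers are shared between groups, but with 2 per group they were not taken as pairs.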

Additional observations from a re-analysis of the deposited data

Results flagged for a closer look

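The change over 24 against 12 weeks differed between the diets in 8844 features in limma's test of that difference. Differences are given as fitted, and for a gene below the background limit in some group they depend on readings there and are not bounds. Among genes that differed toward higher values on chow, Skint4 (5.36) and Serpinb5 (4.46), an epithelial serpin gene, were well above background in C24 alone. Clec1b (4.47), Retnla (4.37), a gene of alternatively activated macrophages, and 1700003E24Rik (4.30) were higher in C24 than in C12 and lower in HF24 than in HF12, with high-fat changes of −1.35, −2.72 and −2.75. None of these 3 was well above background in HF24, and Clec1b and Retnla were not in C12 either. Syt10, well above background in all 4 groups, differed by 4.30, with levels of 1.00 and 2.35 in C24 and of −2.49 and −2.81 in C12, and changed by 0.03 on the high-fat diet.

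Among genes that differed toward lower values on chow, Mup2 (−6.41), Mup5 (−5.83), Mup6 (−5.82) and Mup17 (−5.68) came from the major urinary protein family. Mup5, Mup6 and Mup17 were not well above background in C24 or HF24, nor Mup6 in HF12. Mup2, well above background in all 4 groups, had levels of −4.42 and −1.0 on the HF24 arrays, and its high-fat change of −1.14 was not called. Ubd, likewise measured in all 4 groups, differed by −5.74 ± 0.13, with a fall on chow and a rise of 2.03 on the high-fat diet. The brown fat transcript Lncbate1 differed by −5.64. It was not well above background in C24 and had levels of −1.17 and −1.20 in C12.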

How the results depend on the processing

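Of 302 named genes, 264 kept their direction and their side of the threshold in every alternative. Over 5988 alternatives of named genes 154 lost the call and 0 turned in direction, and 35 genes lost it without 1 array. Features called on chow numbered 10914 to 13013 without 1 array, 11259 with the chow arrays alone and 19367 with no filter on dim probes, where 67.0% of calls were higher, against 51.8% as reported and 49.4% to 54.9% in the other settings, with falls in the majority under quantile normalization with or without normexp, under median centring and with the chow arrays alone. Features called by at least 2-fold, 3220 in all, numbered 1589 with normexp and quantile normalization, 1987 where every array had to be well above background and 3022 to 3374 without 1 array. With replicate number as a block, 12731 features were called on chow, 12807 on the high-fat diet and 7642 in the difference. Deviations of same-numbered C24 and C12 arrays correlated at 0.166, and other pairs of groups at −0.08 to 0.01. Without 1 array, 9491 to 13766 features were called on the high-fat diet and 6240 to 7609 in the difference. With a common signal floor, chosen after seeing the data, 13468 were called on chow. By at least 2-fold there were 2481 with that floor, 1053 higher and 1428 lower. With the chow arrays alone, calls fell to 13 in the cell cycle list, 9 in the ageing list and 5 in the pericyte list. With every array required to be well above background, 1 major urinary protein gene and 3 lymphocyte markers were called. The cause was not tested. Signal over background limits the dim genes, since 786 lower calls had C24 and 254 higher calls had C12 not well above background.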
